A study of Mus musculus with 40 samples.

Results

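The libraries described here are those of wild-type hippocampus at 3 and at 6 months of age. They were chosen by the age and genotype in the sample titles and make up 20 of the 40 small RNA libraries of the study, 5 from mice at 3 months and 15 from mice at 6 months. The other 20 libraries come from CamKIIδC TG mice, a model of heart failure, at the same ages. All wild-type mice were littermates of the TG mice on a C57Bl/6J background. RNA was taken from the hippocampal sub-region CA1. The study drew on both sexes, but the labels give neither the sex nor the litter of each mouse. For 3-month mice 1 and 2 the genotype field reads TG whereas the title reads wildtype control. The title was used, and the letter code in the count table also places these mice with the other 3-month wild-type mice. The comparison asks how miRNA levels of the hippocampus differ between 3 and 6 months of age without heart failure. The labels number the samples of each group without further detail, so the p-values below measure the spread between these libraries, which are referred to as mice by group and number.

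By edgeR's test 1 of 660 miRNAs (0.152%), miR-3535, passed the threshold, with a lower level at 6 months, and its difference rested on 3 of the 5 younger mice. The abundant miRNAs miR-99a-5p, miR-139-5p and let-7g-5p, picked for a small p, showed the same 3 mice apart. They did not pass the threshold in edgeR but passed it in DESeq2, in which 25 miRNAs (3.79%) did. The 2 largest log2 fold changes in the other direction were those of miR-148a-3p and miR-708-3p. They were larger against 6-month mice 1 to 5 than against mice 6 to 15. With the GC content of each library as a covariate they were below 0, but this covariate comes from the same counts and is not independent of age. It also differed between these sets of 6-month mice.

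MicroRNAs are short RNAs cut from hairpin precursors, of which the 5p or the 3p arm is loaded into an Argonaute protein. The loaded strand pairs with messenger RNAs mainly through its seed, the bases near its 5′ end, and lowers their stability or translation. In the hippocampus, miR-9, miR-124 and miR-128 are enriched in neurons, miR-132 is induced by neuronal activity, and let-7 increases as neurons mature. Levels are given as CPM, read counts scaled to a common library size, with TMM factors that correct for differences in library composition. In bulk tissue, fewer cells of a type and less RNA per cell cannot be told apart.

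The mature sequences of the miRNAs on which the comparison turns are printed below from RefSeq (GRCm38.p6), 5′ to 3′, with the seed (bases 2 to 8) in capitals. The first 6 are miRNAs with lower levels at 6 months, by the largest log2 fold changes among miRNAs with an unadjusted p under 0.05 whose mean level reached 10 CPM.
miR-3535: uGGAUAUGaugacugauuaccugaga
miR-298-5p: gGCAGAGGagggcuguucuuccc
miR-873a-3p: gAGACUGAcaaguucccggga
miR-434-3p: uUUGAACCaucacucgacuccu
miR-3968: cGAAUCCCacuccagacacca
miR-351-5p: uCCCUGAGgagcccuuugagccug
The next 5 are those with the largest log2 fold changes in the other direction for which a sequence was matched.
miR-708-3p: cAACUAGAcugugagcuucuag
miR-148a-3p: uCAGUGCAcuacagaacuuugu
miR-1964-3p: cCGACUUCugggcuccggcuuu
miR-8103: uCUCCUGUucucuguucuccc
miR-704: aGACAUGUgcucugcuccuag
The last 5 are the miRNAs with the smallest p among those above 1000 CPM.
miR-99a-5p: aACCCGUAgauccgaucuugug
miR-139-5p: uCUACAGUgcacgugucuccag
miR-218-5p: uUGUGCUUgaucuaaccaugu
let-7g-5p: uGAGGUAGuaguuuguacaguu
miR-7b-5p: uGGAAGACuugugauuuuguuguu
No pair of these 16 shares a seed.

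Library totals ranged from 2816478 to 31304284 counts, and 3 counts corresponded to between 0.153 and 1.44 CPM, a floor that covers counting error only. Some of the libraries stood apart within their age group. The 3-month mice 2, 3 and 4 lay between 5.92 and 7.73 on the second principal component of the 367 miRNAs whose mean level reached 10 CPM, whereas the other 17 mice lay between -3.50 and 1.07. This component carried 8.00% of the variance. Its highest loading was that of miR-3535. The first component, with 65.8% of the variance, spread the 6-month mice: mice 1 to 5 lay between 7.72 and 21.3 and mice 6 to 15 between -8.71 and 5.99. The highest values were those of 6-month mice 4 and 5, the 2 libraries with the fewest counts (4238710 and 2816478). The 3-month mice lay between -12.5 and 0.58 on the first component. Results are therefore given with and without these libraries, and what set them apart was not tested.

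**Figure D1:**
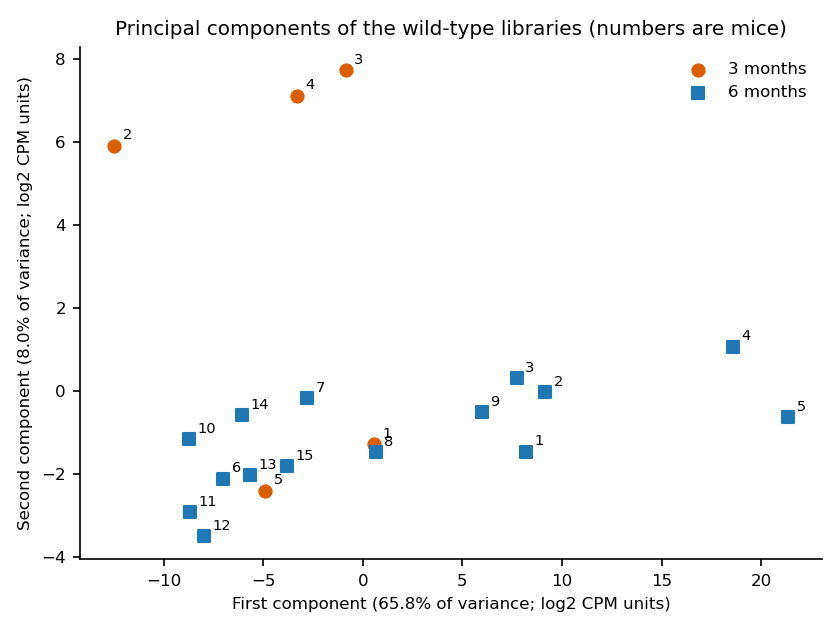
Each point is 1 wild-type library, placed by its first (x) and second (y) principal component of centred log2 CPM over 367 miRNAs. Circles are 3-month and squares 6-month mice, with the mouse number beside them. The 3-month mice 2, 3 and 4 lie apart at the top, and 6-month mice 4 and 5 at the far right.

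The same 3 mice differed in the make-up of their counted miRNAs. The mean GC content of the mature miRNAs, weighted by their counts, was 45.6, 43.2, 43.3, 43.2 and 45.2% in 3-month mice 1 to 5. In the 15 6-month mice it ranged from 44.3 to 46.2% with a median of 44.8%. Within this group, mice 1 to 5 had 45.4 to 46.2% and mice 6 to 15 had 44.3 to 45.1%, without overlap. The 3 low libraries lay below all 6-month libraries, and 3-month mice 1 and 5 lay within the 6-month range. The mean length was 22.03, 22.04 and 22.08 nt in mice 2, 3 and 4, and 21.90 and 21.92 nt in mice 1 and 5. The difference between the ages had an exact two-sided permutation p of 0.0230 for GC content and 0.00787 for length, or 0.0804 and 0.0551 after Benjamini-Hochberg adjustment over 7 library measures. In 8 of the 9 TG libraries at 3 months the GC content lay between 43.1 and 43.8%, and the remaining one had 45.2%. Libraries of lower GC content thus came from 3-month mice of both genotypes. Among the wild-type mice of 3 months, mice 2, 3 and 4 also had the deepest libraries, 22455957 to 31304284 counts against 12006095 and 14052092 in mice 1 and 5.

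**Figure D2:**
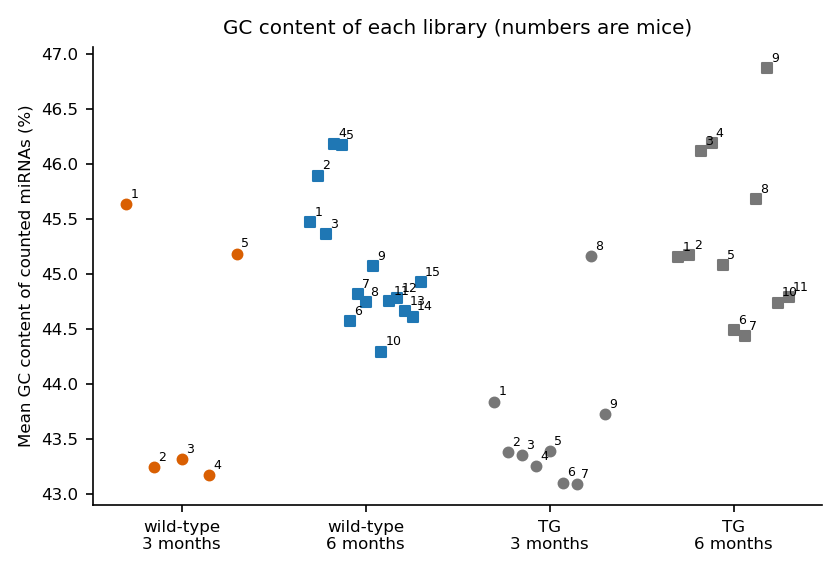
Mean GC content in percent (y) of the counted mature miRNAs in each of the 40 libraries, by genotype and age (x), with the mouse number beside each point. The wild-type 3-month mice 2, 3 and 4 and 8 of 9 TG 3-month mice lie under 44%, below all libraries from 6-month mice.

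The threshold was an adjusted p of 0.05 and an absolute log2 fold change of 0.26 in edgeR's quasi-likelihood test over all 660 miRNAs. Beyond miR-3535, the next smallest adjusted p was 0.179. At an unadjusted p under 0.05 there were 102 miRNAs (15.5%), 52 with a higher level at 6 months (7.88%) and 50 with a lower level (7.58%). The median log2 fold change of all tested miRNAs was -0.02, with a median standard error of 0.29. For 0 miRNAs did the 5 younger mice lie wholly outside the range of the 15 older mice.

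Over all 660 miRNAs, 3-month mice 1 to 5 lay outside the range of the 15 older mice for 3.94, 37.9, 15.6, 17.9 and 5.61%. Mice 2, 3 and 4 were thus outside more often than mice 1 and 5. Of the older mice, each set against the other 14, mice 4 and 5 lay outside for 32.3 and 41.8% and the others for 3.94 to 17.9%. Without mice 2, 3 and 4, a choice made after the data were examined, 0 of 687 miRNAs passed by edgeR's test and 2 (0.291%) had an unadjusted p under 0.05. The 2 remaining 3-month mice limit what such a fit can show.

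**Figure D3:**
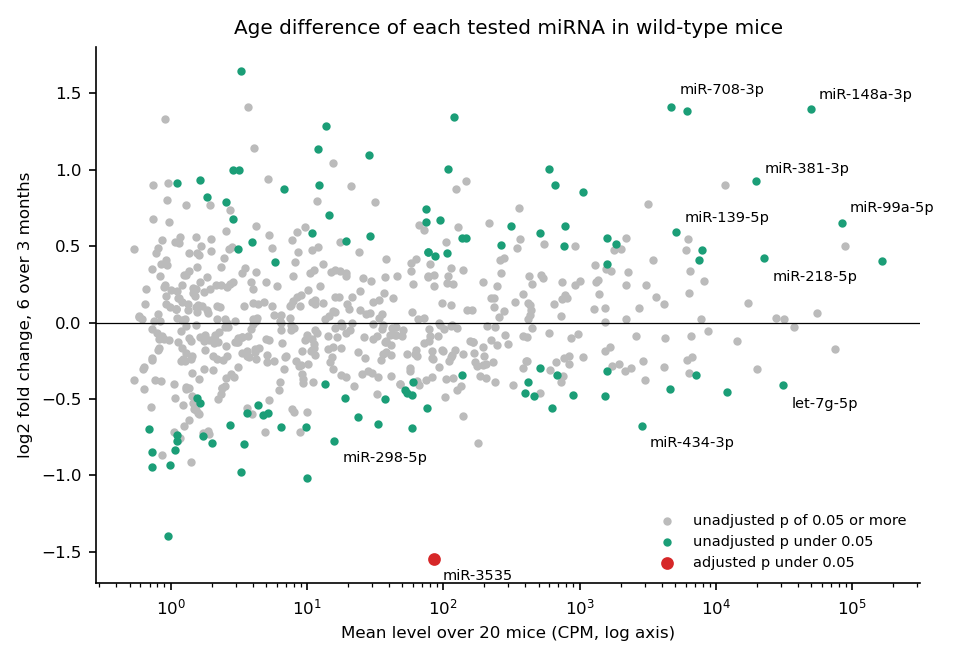
Log2 fold change of 6 over 3 months (y) against the mean CPM over the 20 wild-type mice (x, log axis) for the 660 miRNAs tested. Grey points have an unadjusted p of 0.05 or more, green points one under 0.05, and the red point, miR-3535, is the 1 miRNA past the adjusted threshold.

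miR-3535 was 54.7, 159, 235, 348 and 47.0 CPM in 3-month mice 1 to 5. In 6-month mice it ranged from 39.6 to 110 CPM with a median of 55.1 CPM. Mice 2, 3 and 4 exceeded all 6-month mice, and mice 1 and 5 lay at the 6-month median or below it. The log2 fold change was -1.55 (standard error 0.30, adjusted p = 0.0244, edgeR). Without mice 2, 3 and 4 it was 0.19, and with 6-month mice 6 to 15 only it was -1.75. Without mice 1 and 2, whose labels conflict, it was -1.86 (adjusted p = 0.00760, edgeR). Among TG mice, in the authors' RPM values, which are scaled by the library total, the 3-month level ranged from 49.4 to 240 RPM with a median of 165 RPM, and 8 of 9 mice exceeded the highest 6-month wild-type level of 51.4 RPM. The ninth, TG mouse 8, was also the 1 library of its group with a GC content of 45.2%.

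The sequence counted as miR-3535 lies at chr1:86352062-86352087 (minus strand, GRCm38), within Ncl, the gene of nucleolin, and coincides with the start of an annotated small nucleolar RNA (snoRNA), Gm24148 (chr1:86352008-86352087). Small nucleolar RNAs of the C/D box class guide the methylation of ribosomal RNA and carry a C box near the 5′ end and a D box near the 3′ end. The transcript is shown because the counted sequence is its first 26 of 80 bases, printed in capitals.
Gm24148: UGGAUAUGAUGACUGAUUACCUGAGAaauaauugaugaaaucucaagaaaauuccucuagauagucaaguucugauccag
It holds UGAUGA, the core letters of the C box, from base 7 and its last CUGA, the letters of the D box, from base 72. UGAUGA occurred in 7 of the 565 tested mature sequences that were matched (1.24%), searched on the RNA strand only. Of the 16 other tested miRNAs that overlap an annotated snoRNA or small Cajal body RNA, 0 passed the threshold of edgeR's test and 2, miR-1843b-3p and miR-1291, had an unadjusted p under 0.05, beside 15.5% of all tested miRNAs.

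Among the other miRNAs with lower levels at 6 months, miR-298-5p, which comes from the imprinted Gnas region, was 14.1, 22.3, 28.7, 33.7 and 16.8 CPM at 3 months. At 6 months it ranged from 5.56 to 22.9 CPM with a median of 13.2 CPM. Mice 3 and 4 lay above all 6-month mice, and mice 1, 2 and 5 overlapped them. Its log2 fold change was -0.77 (standard error 0.22, adjusted p = 0.179, edgeR), and -0.19 without mice 2, 3 and 4. miR-873a-3p, from an intron of Lingo2, was 53.6, 92.5, 95.1, 104 and 67.7 CPM at 3 months and 29.3 to 76.96 CPM with a median of 48.4 CPM at 6 months. Again mice 2, 3 and 4 were the ones above all older mice. The age difference on the log2 scale was -0.69 (adjusted p = 0.179, edgeR), and -0.24 without these mice.

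miR-3968, which lies over an exon of Trim80 on the opposite strand, was 41.0, 53.1, 50.7, 59.2 and 25.3 CPM at 3 months and 18.2 to 48.2 CPM with a median of 29.5 CPM at 6 months. miR-351-5p, from the X-linked cluster with miR-322, was 23.7, 23.9, 42.7, 40.6 and 30.5 CPM at 3 months and 10.9 to 27.6 CPM with a median of 20.9 CPM at 6 months. In miR-351-5p, mice 3, 4 and 5 were above the older mice, so that the order of the younger mice differed from that of miR-3535. The log2 fold changes were -0.66 and -0.62 (adjusted p = 0.179 for both, edgeR), and -0.19 and -0.37 without mice 2, 3 and 4.

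Among miRNAs above 1000 CPM, the 5 with the smallest p, a choice that favours such separation, mostly showed 3-month mice 2, 3 and 4 apart. Other abundant miRNAs were mixed. In miR-128-3p and miR-30d-5p, 3-month mice 2, 3 and 4 lay below all 6-month mice, and in miR-27b-3p they lay above them. In miR-127-3p, let-7f-5p, miR-26a-5p, let-7i-5p and let-7c-5p, 0 of the younger mice lay outside the 6-month range. miR-99a-5p, which is transcribed with let-7c-5p from an intron of Mir99ahg, was 92477, 39212, 45771, 41717 and 74346 CPM at 3 months. The 6-month mice ranged from 64448 to 135431 CPM with a median of 90954 CPM. Mice 2, 3 and 4 lay below all older mice, and mice 1 and 5 among them. On the log2 scale the age difference was 0.65 (standard error 0.19, adjusted p = 0.179, edgeR), and 0.15 without mice 2, 3 and 4. let-7c-5p, from the same host gene and from Lncppara, had a log2 fold change of 0.03 (adjusted p = 0.919, edgeR).

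miR-139-5p, from an intron of the phosphodiesterase gene Pde2a, was 4903, 3438, 2203, 2781 and 5262 CPM at 3 months. At 6 months it ranged from 3846 to 6818 CPM with a median of 5579 CPM. The same 3 mice lay below the range of the older mice. This gave a log2 fold change of 0.59 (standard error 0.18, adjusted p = 0.179, edgeR), and 0.14 without them. miR-218-5p, from introns of the axon guidance genes Slit2 and Slit3, was 20159, 16115, 15063, 17831 and 20762 CPM at 3 months and 17669 to 28631 CPM with a median of 25129 CPM at 6 months. Here mice 2 and 3 alone lay below the older mice, and all 5 lay below the 6-month median. Its age difference on the log2 scale was 0.42 (standard error 0.14, adjusted p = 0.199, edgeR), and 0.24 without mice 2, 3 and 4.

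let-7g-5p, from an intron of Wdr82, was 27333, 40167, 49903, 47322 and 26306 CPM at 3 months. At 6 months it ranged from 22986 to 33898 CPM with a median of 28805 CPM. Mice 2, 3 and 4 were above all older mice, and mice 1 and 5 lay below the 6-month median. The log2 fold change was -0.41 (standard error 0.14, adjusted p = 0.213, edgeR), and 0.11 without the 3 mice. miR-7b-5p, of the miR-7 family that is bound by the circular RNA Cdr1as, was 3802, 5879, 5947, 8487 and 4637 CPM at 3 months and 3043 to 5342 CPM with a median of 4284 CPM at 6 months. Mice 2, 3 and 4 again lay above the older mice. On the log2 scale the age difference was -0.44 (adjusted p = 0.278, edgeR), and 0.01 without them.

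**Figure D4:**
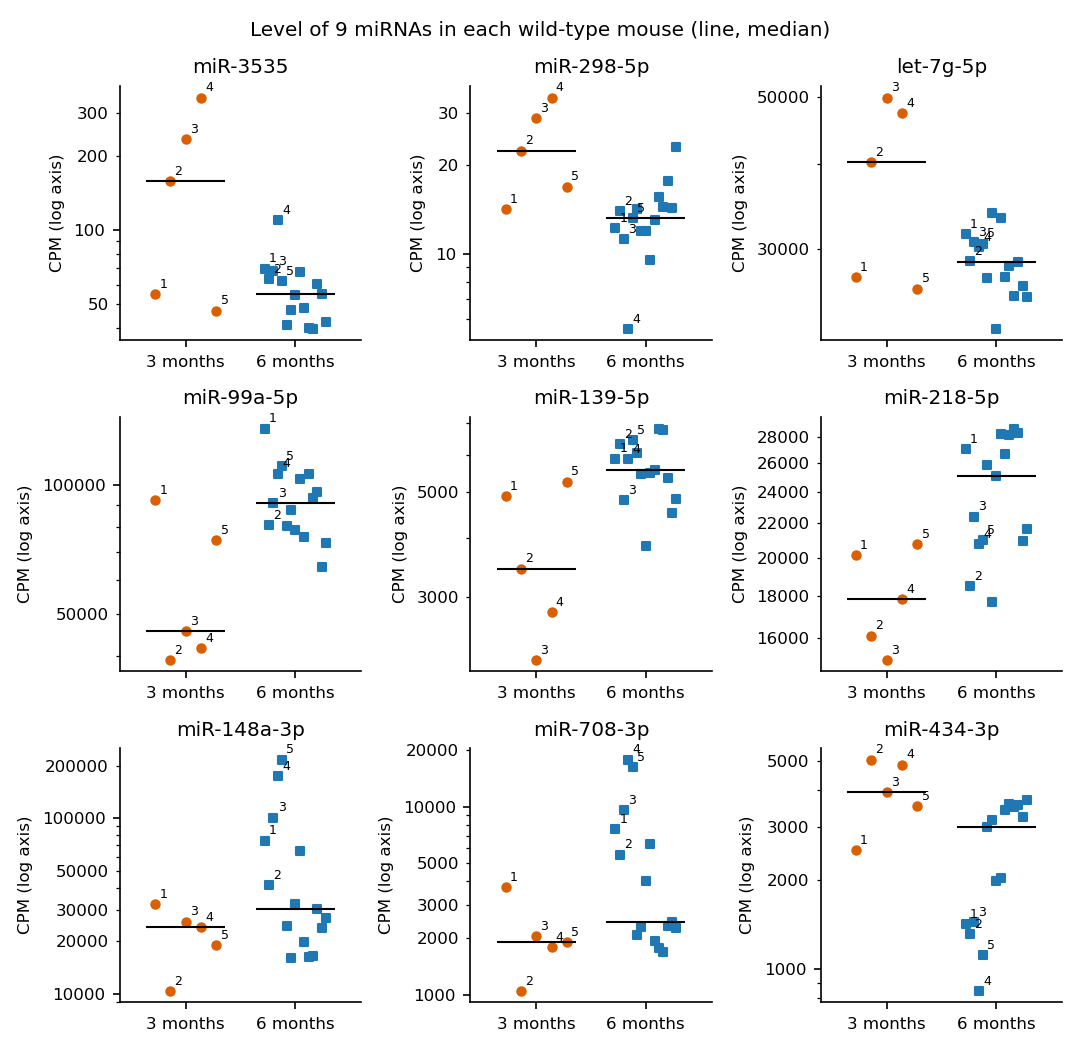
Level in CPM (y, log axis) of 9 miRNAs in each wild-type mouse at 3 months (circles) and 6 months (squares), with the median as a line; numbers mark mice 1 to 5 of each age. In miR-3535, let-7g-5p, miR-99a-5p and miR-139-5p the 3-month mice 2, 3 and 4 lie outside the 6-month mice, and in miR-148a-3p and miR-708-3p the 6-month mice 4 and 5 lie highest.

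In the miRNAs with the largest log2 fold changes above 0, the levels of 6-month mice 1 to 5 were high. miR-148a-3p, which targets the DNA methyltransferase Dnmt1, was 32487, 10368, 25751, 23890 and 18983 CPM at 3 months. At 6 months it ranged from 41401 to 216374 CPM in mice 1 to 5 and from 15909 to 65482 CPM in mice 6 to 15, with a median of 30536 CPM over all 15. In 6-month mice 4 and 5 it was 173883 and 216374 CPM, the highest levels among the 20 mice. This gave a log2 fold change of 1.39 (standard error 0.60, adjusted p = 0.301, edgeR). It was 0.77 without 6-month mice 4 and 5, 0.30 with 6-month mice 6 to 15 only, and -0.31 with the mean GC content of each library as a covariate.

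miR-708-3p, from an intron of the teneurin gene Tenm4, was 3713, 1047, 2051, 1782 and 1901 CPM at 3 months. At 6 months it ranged from 5552 to 17780 CPM in mice 1 to 5 and from 1676 to 6319 CPM in mice 6 to 15, with a median of 2436 CPM over all 15. Its age difference on the log2 scale was 1.41 (standard error 0.57, adjusted p = 0.301, edgeR). It was 0.37 with mice 6 to 15 only and -0.15 with the GC covariate. Similarly, miR-151-3p, miR-1964-3p, miR-8103 and miR-704 had log2 fold changes of 1.38, 1.34, 1.29 and 1.14 (adjusted p = 0.301 for each, edgeR) and of 0.20, 0.24, 0.28 and 0.45 with mice 6 to 15 only. With the GC covariate they had -0.46, -0.38, -0.31 and 0.05. In miR-704, 3-month mice 2, 3 and 4 also lay below all older mice, at 3.30, 4.21 and 5.68 CPM against 6.10 CPM or more. Without 3-month mice 2, 3 and 4 these 6 had log2 fold changes of 0.63 to 1.201. Those with a matched sequence share no seed, and miR-708-3p, miR-1964-3p, miR-8103 and miR-704 lie in introns of different genes. miR-381-3p, of the imprinted miR-379 to miR-410 cluster, had 0.92, 0.22 with mice 6 to 15 only and -0.08 with the GC covariate.

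miR-434-3p, which is cut from the antisense transcript of the imprinted gene Rtl1, showed the opposite order. It was 2509, 5054, 3932, 4858 and 3528 CPM at 3 months. At 6 months it ranged from 848 to 1440 CPM in mice 1 to 5 and from 1973 to 3694 CPM in mice 6 to 15, so that these 2 sets of 6-month mice did not overlap. The age difference on the log2 scale was -0.68 (standard error 0.29, adjusted p = 0.301, edgeR). With mice 6 to 15 only it was -0.35. The other strand of the same hairpin, miR-434-5p, had 0.47 (adjusted p = 0.301, edgeR). Without 3-month mice 2, 3 and 4 the values of the 2 strands were -0.28 and -0.11. Between the 5 younger mice and 6-month mice 1 to 5, 251 of 597 miRNAs (42%) passed the threshold of edgeR's test, and between them and 6-month mice 6 to 15, 2 of 656 (0.305%). The 2 were miR-3535 and miR-486a-3p. Both subsets were chosen after the data were examined, and the labels name no batch that separates mice 1 to 5 from mice 6 to 15.

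With DESeq2, which the study's methods name together with factors of unwanted variation that were left out of this fit, 25 of the 660 miRNAs passed the same thresholds (3.79%), 13 with higher and 12 with lower levels at 6 months. All 25 had an unadjusted p under 0.05 in edgeR. They included miR-3535 (DESeq2, adjusted p = 0.00162) and 8 of the miRNAs described above that did not pass in edgeR, namely miR-298-5p, miR-351-5p and miR-99a-5p (DESeq2, adjusted p = 0.0240 for each), miR-3968 (0.0239), miR-139-5p (0.0261), miR-218-5p (0.0374), and let-7g-5p and miR-873a-3p (0.0477 for both). miR-467a-5p and miR-467b-5p, also among the 25, have identical counts and are the same reads listed under 2 names. With 1 RUVs or RUVr factor in DESeq2, 42 or 197 miRNAs passed. The median absolute log2 fold change of the 25, which were chosen on these mice, was 0.59, and 0.19 without 3-month mice 2, 3 and 4, where 24 were smaller and 4 changed sign. miR-29c-5p, the partner strand of miR-29c-3p, was 68.0, 36.3, 39.8, 36.8 and 66.0 CPM at 3 months and 54.2 to 101 CPM with a median of 84.8 CPM at 6 months. Its log2 fold change was 0.74 (DESeq2, adjusted p = 0.00219), and 0.30 without the 3 mice. miR-451a, an erythroid miRNA that matures without Dicer, was 275, 192, 150, 227 and 268 CPM at 3 months and 225 to 473 CPM with a median of 348 CPM at 6 months. It had a log2 fold change of 0.63 (DESeq2, adjusted p = 0.0117), and 0.35 without them. Here all 5 younger mice lay below the 6-month median. The exception among the 25, for which the change was not smaller without the 3 mice, was miR-700-3p, at 18.98, 21.99, 24.8, 26.3 and 29.9 CPM at 3 months and 10.6 to 24.3 CPM with a median of 17.7 CPM at 6 months. Its log2 fold change was -0.49 (DESeq2, adjusted p = 0.0240), and -0.50 without mice 2, 3 and 4.

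The 25 lists of miRNAs by family, locus or cell type hold no member that passed edgeR's threshold, at 0.152% over all miRNAs tested. Their counts at an unadjusted p under 0.05 can be read against the 7.88% higher and 7.58% lower over all tested miRNAs. Of the neuron-enriched list, 3 of 7 members had a log2 fold change above 0 and 4 below, with a median of -0.10. miR-128-3p, which dampens neuronal excitability and was the most abundant miRNA, was 187832, 105494, 111436, 98830 and 168207 CPM at 3 months and 125246 to 273114 CPM with a median of 176482 CPM at 6 months. Its log2 fold change was 0.40 (adjusted p = 0.321, edgeR), and 0.00 without mice 2, 3 and 4. miR-9-5p had -0.17 and miR-124-3p -0.37 (adjusted p = 0.573 and 0.540, edgeR). The summed level of the list ranged from 202759 to 257284 CPM at 3 months and from 195970 to 341797 CPM at 6 months. This sum was carried by miR-128-3p and miR-9-5p, with mean levels of 166928 and 74597 CPM, against 3012 CPM for miR-124-3p.

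Of the activity-induced miR-132 and miR-212, 2 of 4 strands had an unadjusted p under 0.05, both with higher levels at 6 months. miR-132-3p and miR-132-5p had log2 fold changes of 0.39 and 0.55 (adjusted p = 0.301 and 0.316, edgeR), and 0.10 and 0.09 without 3-month mice 2, 3 and 4. The strands of miR-212, which is cut from the same transcript, had -0.21 and -0.08. Among 17 strands of miRNAs with known synaptic roles, miR-218-5p was the 1 with an unadjusted p under 0.05, and the median was 0.08.

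Of 22 let-7 and miR-98 strands tested, 8 were above 0 and 14 below, with a median of -0.10. An unadjusted p under 0.05 was found for 3, all with lower levels at 6 months. The median was 0.11 without 3-month mice 2, 3 and 4. Of the 11 tested miRNAs with the seed of let-7g-5p, 7 had a log2 fold change below 0, among them let-7d-5p (-0.29), miR-98-5p (-0.26) and let-7a-5p (-0.12). Those of the other abundant members, let-7c-5p, let-7f-5p and let-7i-5p, lay near 0, and their sequences are shown for comparison with that of let-7g-5p.
let-7c-5p: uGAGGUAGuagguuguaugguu
let-7f-5p: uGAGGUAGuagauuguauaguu
let-7i-5p: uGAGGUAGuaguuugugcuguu
let-7f-5p had a log2 fold change of 0.06 and let-7i-5p one of 0.03 (adjusted p = 0.923 and 0.969, edgeR), but their direction depended on the libraries and the scaling. Without 3-month mice 2, 3 and 4 they had 0.47 and 0.36, with 6-month mice 6 to 15 only -0.26 and -0.25, and with scaling by the library total alone -0.21 and -0.22. In let-7f-5p, 3-month mice 3 and 4 were high with 71669 and 69182 CPM, but 6-month mice 4 and 5 were higher with 96177 and 99926 CPM. Reads of near-identical family members can be counted on one another.

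In the miR-181 family, 7 of 8 strands had a log2 fold change below 0, with a median of -0.19 and 3 with an unadjusted p under 0.05. All 3 were strands of the 3p arm, miR-181a-1-3p, miR-181b-1-3p and miR-181c-3p, with -0.34, -0.54 and -0.50. Without 3-month mice 2, 3 and 4 they had -0.28, -0.10 and 0.17. The 1 strand above 0, miR-181a-2-3p with 0.42, is also of the 3p arm. The abundant miR-181a-5p had -0.09. In the miR-29 family, 5 of 7 strands lay below 0 with a median of -0.18, whereas miR-29c-5p lay above 0. The strands of the opposite arm, miR-29a-3p, miR-29b-3p and miR-29c-3p, had -0.06, -0.35 and -0.38. Without mice 2, 3 and 4 the medians of the 2 families were -0.11 and 0.03.

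The imprinted Dlk1-Dio3 region holds 2 groups of miRNAs expressed from the maternal chromosome. Of 23 tested strands of its upstream part, 6 had an unadjusted p under 0.05 with a lower level at 6 months and 1 with a higher level, with a median log2 fold change of -0.17. The lower ones included miR-433-3p and miR-136-3p, both with -0.48 (adjusted p = 0.301 and 0.314, edgeR). Without 3-month mice 2, 3 and 4 they had -0.32 and 0.09, and the median of the list was -0.08. In the 66 tested strands of the miR-379 to miR-410 cluster, 4 were higher and 4 lower at that threshold, with a median of -0.03. miR-495-3p had 0.63 and miR-382-3p -0.56 (adjusted p = 0.179 and 0.199, edgeR), although both lie in this cluster, and without 3-month mice 2, 3 and 4 they had 0.17 and 0.18.

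Among miRNAs that share a seed, the 6 tested members of the miR-15 and miR-16 family (seed AGCAGCA) all had a log2 fold change below 0, with a median of -0.26, and 0 had an unadjusted p under 0.05. Without mice 2, 3 and 4 their median was 0.05. The 4 members of the miR-17 family tested (seed AAAGUGC) all lay below 0 with a median of -0.30, and of -0.02 without these mice.

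Among the other families and clusters, the miRNAs from introns of Sfmbt2 had 8 of 31 strands above 0 and 23 below, with a median of -0.12, and of 0.11 without mice 2, 3 and 4. At an unadjusted p under 0.05, 1 was lower and 2 were higher, but the 2 higher, miR-467a-5p and miR-467b-5p, are the same reads listed under both names. The clusters of miR-23, miR-24 and miR-27 had 7 of 10 strands above 0 with a median of 0.21, where 2 were higher and 1 was lower at that p. miR-27b-3p had -0.35 (adjusted p = 0.321, edgeR), and 0.11 without mice 2, 3 and 4. The family of miR-99, miR-100 and miR-125 had 7 of 11 strands above 0 with a median of 0.19, and the miR-344 family 7 of 9 with a median of 0.21. In both, 1 strand was higher and 1 lower at an unadjusted p under 0.05. The miR-30 family had 6 of 11 strands above 0 with a median of 0.10. The miRNAs from introns of the serotonin receptor gene Htr2c had 2 of 7 strands above 0 and a median of -0.00, with 0 at an unadjusted p under 0.05. The clusters of miR-17, miR-106 and miR-25 had 6 of 13 strands above 0 with a median of -0.23, and the epithelial miR-200 family 1 of 5 with a median of -0.19.

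**Figure D5:**
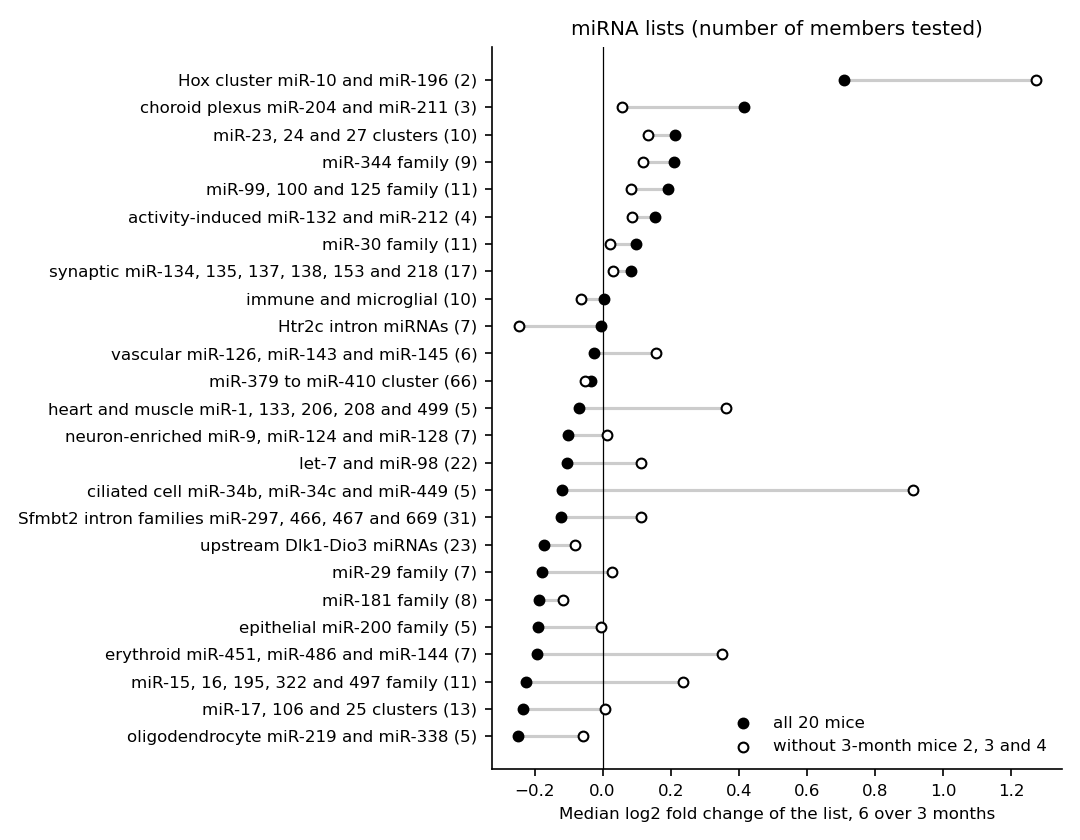
Median log2 fold change, 6 over 3 months (x), of each of 25 miRNA lists (y, with the number of tested members). Filled circles are all 20 wild-type mice and open circles the fit without 3-month mice 2, 3 and 4. The Hox cluster list lies farthest from 0 in both fits, with medians of 0.71 and 1.27 from 2 members. Several lists have medians on opposite sides of 0 in the 2 fits. Among them are the let-7, miR-29, erythroid, ciliated cell, heart and muscle, and Sfmbt2 lists.

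The lists of other cell types had lower summed levels than the neuron-enriched list. Single members did not all follow this order, since vascular miR-126a-3p (mean 8251 CPM) exceeded miR-124-3p (mean 3012 CPM). The oligodendrocyte miRNAs miR-219 and miR-338 had 4 of 5 strands below 0, with a median of -0.25, and 0 with an unadjusted p under 0.05. Their summed level ranged from 1497 to 2168 CPM at 3 months and from 956 to 2288 CPM at 6 months. The immune and microglial list had 5 strands on each side and 0 with an unadjusted p under 0.05. miR-21a-5p, its most abundant member, had 0.09. The vascular list summed to 10009 to 16785 CPM at 3 months and 11919 to 23542 CPM at 6 months, and miR-126a-3p of endothelial cells had 0.27 (adjusted p = 0.375, edgeR), and -0.05 without 3-month mice 2, 3 and 4.

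All 3 tested strands of the choroid plexus markers miR-204 and miR-211 had a log2 fold change above 0, with a median of 0.41, and of 0.06 without 3-month mice 2, 3 and 4. miR-204-5p was 598, 366, 622, 510 and 825 CPM at 3 months and 504 to 1768 CPM with a median of 808 CPM at 6 months. Its log2 fold change was 0.50 (adjusted p = 0.301, edgeR), and 0.22 without mice 2, 3 and 4. The erythroid strands lay on both sides of 0. Of 7 tested, 1 was higher and 2 were lower at an unadjusted p under 0.05. miR-451a had 0.63 and miR-486a-3p -1.02 (adjusted p = 0.179 for both, edgeR), whereas the abundant miR-486b-5p had 0.12. Without 3-month mice 2, 3 and 4, the values of these 3 were 0.35, 0.05 and 0.01. miR-486a-3p was 8.52, 14.8, 23.5, 25.1 and 6.64 CPM at 3 months and 4.00 to 17.8 CPM with a median of 6.81 CPM at 6 months, and mice 3 and 4 alone lay above the older mice. The hairpins of miR-486a and miR-486b overlap on opposite strands, so that their reads are uncertain. The part of blood or choroid plexus in these values was not tested.

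Single mice set the range of some markers. miR-34c-5p, a miRNA of ciliated cells that is also found in the hippocampus, was 78.0, 125.02, 406, 140 and 82.4 CPM at 3 months and 71.6 to 688 CPM with a median of 119 CPM at 6 months. The muscle miRNA miR-1a-3p was 428.6, 583, 1223, 571 and 271 CPM at 3 months and 221 to 1382 CPM with a median of 548 CPM at 6 months. The highest 3-month value of both was that of mouse 3. The heart-specific miR-208a-3p had 0 counts in all 20 libraries, which allows up to 0.153 to 1.44 CPM depending on the library, and of the 18 strands of the heart and muscle list 7 had 0 counts in all of them and 5 were tested. The log2 fold changes of miR-34c-5p and miR-1a-3p were -0.12 and -0.07 (adjusted p = 0.919 and 0.927, edgeR), and 0.92 and 0.75 without mice 2, 3 and 4.

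The ratio of the 5p to the 3p arm within a library does not depend on the scaling of libraries. Of 179 hairpins, 0 passed an adjusted p of 0.05 by limma, and 23 (12.8%) had an unadjusted p under 0.05. The smallest was that of miR-486a, with log2 ratios of 5.66, 4.18, 3.92, 4.25 and 5.91 at 3 months and 5.25 to 6.16 with a median of 5.73 at 6 months. Mice 2, 3 and 4 lay below all older mice in this ratio. The difference was 0.95 (standard error 0.27, adjusted p = 0.249, limma). The arm ratios of miR-187 and miR-330 differed by -1.05 and 0.66 (adjusted p = 0.249 for both, limma).

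The age difference could be set against sequence composition in 319 miRNAs that had a matched sequence and a mean level of 10 CPM or more. The median log2 fold change was -0.24 for the 24 miRNAs under 35% GC, -0.09 for 77 from 35 to 45%, 0.12 for 140 from 45 to 55% and 0.09 for 78 at 55% or more. Across these miRNAs, which are not independent, Spearman's rho with GC content was 0.19, and -0.02 without 3-month mice 2, 3 and 4. With the mean GC content of each library as a covariate, added after the data were examined, 0 of 660 passed edgeR's test and 32 (4.85%) had an unadjusted p under 0.05, and the log2 fold change of miR-3535 was -1.19. Of the 44 miRNAs named by rule, 19 changed sign in this fit, 5 of the 6 largest differences above 0 included. The covariate is computed from the same counts that were tested, and 3-month mice 2, 3 and 4 lay below all 6-month mice in it. Within the older group, 6-month mice 1 to 5 lay above 6-month mice 6 to 15 in it. Age and library composition can therefore not be told apart in this fit.

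In TG mice the same comparison of 9 against 11 mice gave 99 of 629 miRNAs past the threshold of edgeR's test (15.7%). Of the miRNAs described above, miR-3535 had a log2 fold change of -2.004, miR-99a-5p 1.01 and miR-139-5p 0.90. For miR-218-5p it was 0.55, for let-7g-5p -0.58 and for miR-298-5p -0.85. These 6 passed the threshold in TG mice. So did others described above, among them miR-3968 (-0.84), miR-29c-5p (0.94), miR-451a (0.68), miR-486a-3p (-2.14), miR-204-5p (0.89) and miR-128-3p (0.73). Further miRNAs described above did not pass. These included miR-873a-3p with -0.31, miR-351-5p with -0.40, miR-434-3p with -0.56 and miR-700-3p with -0.35 (adjusted p = 0.149, 0.0856, 0.112 and 0.138, edgeR). For miR-148a-3p and miR-708-3p the TG values were 0.50 and 0.78 (adjusted p = 0.484 and 0.241, edgeR). Whether the age difference itself differed by genotype was tested with an interaction term over all 40 libraries. Of 699 miRNAs, 0 passed (0%), and 14 (2%) had an unadjusted p under 0.05. For miR-3535 the interaction was -0.49 (adjusted p = 0.986, edgeR).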

How the data were processed

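Small RNA libraries of CA1 were prepared with the NEBNext kit and sequenced on a HiSeq instrument. The authors trimmed 3′ adapters with cutadapt (version 2.8 in the submitters' processing notes, after bcl2fastq 2.20.2 and FastQC 0.11.5) and deposited raw counts from the mirdeep2 quantifier on mm10 and miRBase, for 2128 pairs of a mature miRNA and a precursor. The deposited RPM values are the same counts scaled by the authors to the library total. Where 1 of the 1978 mature miRNAs had several precursors, the entry with the most counts was kept, since the same reads are counted on each. The 52 spike-in entries were left out of the miRNA tests, and 0 columns were unmapped.

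The 20 wild-type libraries were fitted with edgeR 4.0.16 (R 4.3.3): filterByExpr (minimum count 10, minimum total 15), TMM, robust quasi-likelihood F test and Benjamini-Hochberg adjustment. The thresholds were an adjusted p of 0.05 and an absolute log2 fold change of 0.26. Arm ratios were tested with limma 3.58.1 on log2 CPM with a prior count of 2, and library measures by exact two-sided permutation over all 15504 splits in scipy 1.17.1. The same permutation test on log2 CPM of the 44 named miRNAs gave an unadjusted p under 0.05 for 17. Some of the 44 were named for a small p in these same mice, so this count partly reflects that choice. Principal components were computed from centred log2 CPM. Alternatives were DESeq2 1.42.0, alone or with an RUVs or RUVr factor (unwanted variation, computed from their definitions), other scalings and filters, and fewer mice. Simulated counts were used to check the edgeR script.

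The miRNAs, lists and tests were chosen with earlier results of these data known. Named miRNAs were those past the threshold, the 6 largest log2 fold changes in each direction with an unadjusted p under 0.05 and a mean of at least 10 CPM, the 5 smallest p above 1000 CPM, the 10 most abundant miRNAs, the most abundant member of each of 25 lists and the 3 arm ratios with the smallest p. Other miRNAs were named after their values were seen. Sequences were matched by name for 1679 of 1978 miRNAs in RefSeq, and the positions of genes and snoRNAs are from GENCODE, both on GRCm38. Since PCR copies cannot be told from separate molecules without molecular identifiers, floors cover counting error only.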

Additional observations from a re-analysis of the deposited data

Results flagged for a closer look

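The highest and the lowest of the 5 younger mice were compared with their nearest neighbour in 51 groups of values, and 2 groups held a mouse that stood apart by Dixon's criterion, for which the gap must exceed 0.71 of the range. Chance alone gives such a mouse in a share of about 0.05 of the groups. miR-34c-5p was 405.6 CPM in 3-month mouse 3, where the gap to the next mouse made up 0.812 of the range. This value lay within the range of the older mice, whose highest value was 688 CPM. miR-16-5p was 550.1 CPM in 3-month mouse 2, with a gap of 0.752 of the range, and the highest of the older mice had 541.4 CPM.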

How the results depend on the processing

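The number of miRNAs that passed depended strongly on the model. It was 0 with upper quartile scaling, limma or thinning of all libraries to one depth (96, 79 and 66 with an unadjusted p under 0.05), 2 with scaling by library total and 2 with spike-in scaling, under which the median log2 fold change of all miRNAs was -0.19 and -0.30. It was 25 with DESeq2, 42 with DESeq2 and 1 RUVs factor, 197 with DESeq2 and 1 RUVr factor, and 171 with edgeR and 1 RUVr factor. Leaving out 1 mouse at a time gave 0 to 4. It was 0 without 3-month mouse 2, 3 or 4 (48, 61 and 47 with an unadjusted p under 0.05) and without 6-month mouse 7 or 8, and 4 without 3-month mouse 1 or 5. Of the alternatives added after the data were examined, 0 passed without 3-month mice 2, 3 and 4 and 0 with GC content as a covariate, 251 with 6-month mice 1 to 5 only, and 2 with 6-month mice 6 to 15 only. For arm ratios, 1 passed without 3-month mouse 5 and 0 without any other single 3-month mouse. Single 6-month mice were not left out for the arm ratios. The cause of these shifts was not tested.

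Mice of the same number at both ages share no more than the number: the correlation of their deviations averaged 0.02 over 5 pairs (-0.51 to 0.41), and 0 of 5 correlated best with their own number. With the number as a replicate block, 250 miRNAs and 64 arm ratios passed. In this fit miR-9-5p and miR-1a-3p had log2 fold changes of 0.019 and 0.34. Numbers 6 to 15 occur at 6 months only, so those mice add nothing to the age difference in a fit with this block. It rests on the younger mice and 6-month mice 1 to 5. Between these mice 251 of 597 miRNAs passed without a block. Whether these were the same miRNAs as the 250, and what the block itself added, was not tested.

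Of 1804 log2 fold changes of named miRNAs under other settings, 1576 kept direction and side of the threshold, 112 changed sign, 10 no longer passed and the rest newly passed. Without 3-month mice 2, 3 and 4 the sign changed for miR-3535 (0.19), let-7g-5p (0.11), miR-7b-5p (0.015), miR-9-5p (0.27), miR-126a-3p (-0.053), miR-34c-5p (0.92), miR-1a-3p (0.75), miR-16-5p (0.069), miR-30d-5p (-0.19) and miR-27b-3p (0.11). With GC content as a covariate it changed for miR-708-3p (-0.154), miR-148a-3p (-0.313), miR-151-3p (-0.463), miR-1964-3p (-0.38), miR-8103 (-0.311), miR-128-3p (-0.003), miR-127-3p (-0.441), let-7f-5p (-0.307), miR-26a-5p (0.142), let-7i-5p (-0.259), let-7c-5p (-0.065), miR-29a-3p (0.145), miR-486b-5p (-0.392), miR-34c-5p (0.598), miR-10a-5p (-0.138), miR-381-3p (-0.081), miR-25-3p (-0.226), miR-16-5p (0.311) and miR-30d-5p (-0.0). With 6-month mice 6 to 15 only it changed for miR-127-3p (-0.107), let-7f-5p (-0.262), miR-26a-5p (0.142), let-7i-5p (-0.255), let-7c-5p (-0.052), miR-181a-5p (0.028), miR-29a-3p (0.095), miR-486b-5p (-0.243), miR-34c-5p (0.097), miR-25-3p (-0.188) and miR-16-5p (0.217). Without 6-month mice 4 and 5 it changed for let-7f-5p (-0.104), miR-26a-5p (0.061), let-7i-5p (-0.089), miR-29a-3p (0.015), miR-486b-5p (-0.067) and miR-25-3p (-0.028), and with 6-month mice 1 to 5 only for miR-9-5p (0.003) and miR-1a-3p (0.284). With the RUVs factor it changed for miR-127-3p (-0.10), let-7f-5p (-0.29), miR-26a-5p (0.11), let-7i-5p (-0.25), let-7c-5p (-0.052), miR-181a-5p (0.01), miR-29a-3p (0.11), miR-486b-5p (-0.19), miR-25-3p (-0.17) and miR-16-5p (0.19). With library totals it changed for let-7f-5p (-0.21), let-7i-5p (-0.22), let-7c-5p (-0.16), miR-21a-5p (-0.09), miR-486b-5p (-0.14), miR-25-3p (-0.16) and miR-30d-5p (-0.046), and with spike-in scaling for the same 7 (-0.41, -0.41, -0.28, -0.21, -0.25, -0.32 and -0.064) and miR-344d-3p (-0.007). With limma it changed for let-7f-5p (-0.11), let-7i-5p (-0.14), let-7c-5p (-0.11), miR-21a-5p (-0.049), miR-486b-5p (-0.082) and miR-25-3p (-0.10). Without 3-month mice 1 and 2 it changed for let-7f-5p (-0.086), let-7i-5p (-0.10), let-7c-5p (-0.017), miR-181a-5p (0.10), miR-29a-3p (0.21) and miR-16-5p (0.10). With RUVr factors let-7f-5p had -0.032 in DESeq2 and -0.026 in edgeR, and let-7i-5p -0.041 and -0.035. Without a count filter let-7i-5p had -0.024 and let-7c-5p -0.01, and with upper quartile scaling miR-1a-3p had 0.006. With 1 mouse left out, the range crossed 0 for let-7c-5p (-0.013 to 0.088), let-7f-5p (-0.046 to 0.18), let-7i-5p (-0.062 to 0.15), miR-16-5p (-0.24 to 0.14), miR-181a-5p (-0.22 to 0.019), miR-1a-3p (-0.26 to 0.33), miR-26a-5p (-0.069 to 0.015), miR-29a-3p (-0.17 to 0.12) and miR-34c-5p (-0.53 to 0.52).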
